A study of Rattus norvegicus with 6 samples.

Results

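The genes described here encode the proteins of the cytosolic ribosome. They were taken from the deposited count table by name: every row whose gene name starts with Rpl or Rps, without the ribosomal S6 kinases (names starting Rps6k) and without Rps19bp1. The rule gave 96 rows with 90 different names, of 32883 rows in all. Canonical names, called parents below, took 80 rows, 50 for the large subunit and 30 for the small subunit. The other 16 rows are called paralogs below. Their names are those of a parent with an added suffix (Rps27l beside Rps27), except Rps4y2, which was set beside Rps4x. Rps4x-ps9 is among them, although its suffix is the one given to pseudogenes. Of 77 canonical names, 74 had a row, and Rpl22, Rps13 and Rps26 were not analysed here.

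All samples were wild-type GH4C1 cells, an established cell line from the rat pituitary that makes growth hormone and prolactin, kept in HamF10 medium with horse serum (15%) and fetal calf serum (2%). Psoralen, which crosslinks paired nucleic acid strands, was applied to the cells in every group, and RNA was pulled down with oligonucleotides to find RNAs bound directly to the long noncoding RNA Neat1, a scaffold of nuclear paraspeckles. Each of the pools used, oligo pool A and pool B, gave 3 libraries. The labels state neither the oligonucleotides of a pool nor whether a pool was a control, so the comparison below is of pool A against pool B and carries no further direction. Nothing in the labels says that the libraries of a pool came from separate cultures, so p-values measure the spread between these libraries, which may be technical. In such bulk libraries, better recovery, more RNA per cell and more cells cannot be told apart.

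The ribosome is built from a large and a small subunit, each a core of ribosomal RNA covered by proteins, most of them present once per ribosome. Messenger RNAs for these proteins typically begin with a terminal oligopyrimidine (TOP) tract, a C at the cap followed by a run of C and T, through which growth signals via mTOR and the RNA-binding protein Larp1 set their translation. Many of these genes also carry small nucleolar RNAs (snoRNAs) in their introns, and many have processed copies elsewhere in the genome.

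Where a parent had a single row, beside its known neighbours, and a single RefSeq promoter entry, the bases around the annotated start were read. Rpl21 and Rpl7a, which have several rows, were left out. The 11 starts below belong to the called parents, among those read, with the largest differences between pools, up to 3 per subunit and direction. They show whether a pyrimidine tract lies where the TOP rule puts it. Each line holds 15 bases before the start and 15 from it, 5′ to 3′ on the gene's strand, from RefSeq's GRCr8 assembly, and capitals mark the longest run of C and T.
Rpl3, chr7:113507976-113508005, minus strand, higher with pool A: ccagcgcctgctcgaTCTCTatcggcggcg
Rpl17, chr18:70856261-70856290, plus strand, higher with pool A: tagccttcgcgCTTCCTCTTCCTgttagcg
Rpl13, chr19:68062499-68062528, plus strand, higher with pool A: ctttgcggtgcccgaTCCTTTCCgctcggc
Rps28, chr7:15311319-15311348, minus strand, higher with pool A: gcatcccctgctcacgtgaCTCCTCTCCgc
Rps23, chr2:23814502-23814531, plus strand, higher with pool A: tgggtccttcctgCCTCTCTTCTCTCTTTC
Rps24, chr16:96502-96531, plus strand, higher with pool A: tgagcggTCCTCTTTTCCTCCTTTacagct
Rpl27a, chr1:172974558-172974587, plus strand, higher with pool B: cgagacttggtgggCTCCTCCCTCTTTCTT
Rpl36, chr9:1533765-1533794, plus strand, higher with pool B: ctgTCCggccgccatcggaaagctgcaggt
Rpl41, chr7:1563483-1563512, minus strand, higher with pool B: ggcggCTCggaagtgacgacaccaagcacg
Rps3a, chr2:173827028-173827057, minus strand, higher with pool B: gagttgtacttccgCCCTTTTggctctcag
Rps10, chr20:5700730-5700759, minus strand, higher with pool B: gccgcgcacgCCCCTTCCTTTCCagcctcc
Tracts of 12 to 17 pyrimidines reach across the annotated start of Rpl17, Rps23, Rps24, Rpl27a and Rps10. The windows of Rpl36 and Rpl41 hold no run over 3.

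Total counts per library lay between 1826390 and 3685899, so that the 3 counts a value of 0 allows correspond to between 0.814 and 1.64 CPM (a gene's count when each library's total is set to 1000000). The markers of the lineage were present: Gh1 had means of 170.2 CPM with pool A and 166 CPM with pool B, Prl of 713 and 445 CPM, and Pou1f1 of 158 and 204 CPM, and of these Prl alone passed the test (log2 fold change 0.83, adjusted p = 1.26e-05). Markers of other pituitary lineages summed to between 14.6 and 26.0 CPM with pool A and between 51.5 and 54.5 CPM with pool B, with Tshb and Fshb at 0 in every library. Most of this sum was Lhb, a gonadotroph gene, with means of 11.9 and 42.0 CPM (log2 fold change -1.68, adjusted p = 2.0e-05). Fibroblast markers summed to at most 24.5 CPM, immune markers to at most 24.6 CPM and endothelial markers to at most 0.814 CPM. In 20 adjacent rows at Rn5-8s, a gene of 5.8S ribosomal RNA, lay 13.3% to 22.9% of the counts with pool A and 6.07% to 11.05% with pool B, and leaving these rows out of the library sizes gave 27 and 13 members called higher with pools A and B (26 and 13 with them in). The part of the marker differences in what follows was not tested.

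Ribosomal protein genes differed between the pools in both directions, and more of them were higher with pool A. Of 96 rows, 79 passed the filter on low counts and were tested with edgeR's quasi-likelihood test, with Benjamini-Hochberg adjusted p-values over the 11582 genes tested. At an adjusted p under 0.05, 26 members (32.9%) were higher with pool A, where 18.6% of all tested genes were, and 13 members (16.5%) were higher with pool B, against 22.0% of all tested genes. The remaining 40 members did not pass, while 40.6% of all tested genes passed in either direction. CPM ranges of the pools did not overlap for 24 members higher with pool A (18.9% of all tested genes) and for 21 higher with pool B (30.2%), where 49.1% of all tested genes did not overlap in either direction. The median log2 fold change, pool A over pool B, was 0.23 over the tested members and 0.02 over all tested genes. Over the tested parents it was 0.22, and 0.11 without pool A replicate 1. With libraries scaled by total counts alone, it was 0.07 over the parents and -0.13 over all tested genes. With over 2-fold more, 5 members (6.33%) passed the threshold toward pool A and 7 (8.86%) toward pool B, against 11.1% and 14.2% of all tested genes.

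**Figure D1:**
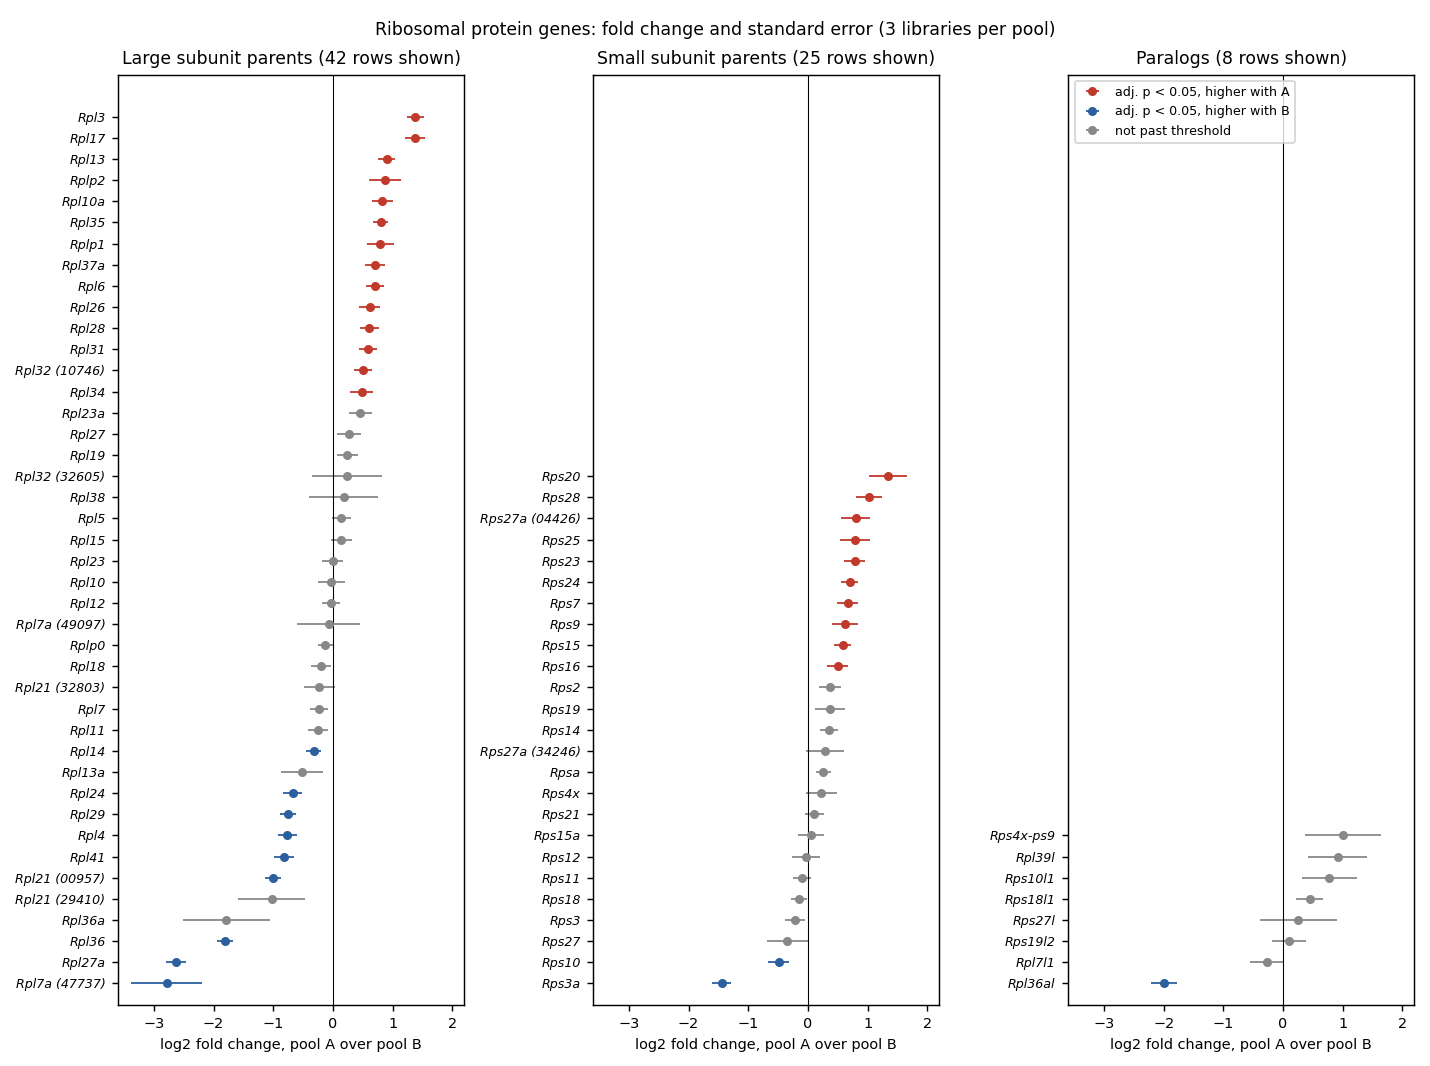
Log2 fold change of pool A over pool B (x axis) for tested ribosomal protein genes, with the standard error, in panels for large subunit parents, small subunit parents and paralogs; red and blue points passed an adjusted p of 0.05 (edgeR), and digits in brackets end the identifier of a name with several rows. Large subunit parents reach from -2.79 to 1.38, small subunit parents from -1.45 to 1.34, and the paralog Rpl36al stands apart at -2.0.

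Small subunit parents were called toward pool A in a larger share than large subunit parents. Of 43 large subunit parents tested, 14 (32.6%) were higher with pool A while 9 (20.9%) were higher with pool B, with a median log2 fold change of -0.01 and quartiles of -0.42 and 0.60. Among 28 small subunit parents tested, 12 (42.9%) were higher with pool A while 3 (10.7%) were higher with pool B, with a median of 0.36 and quartiles of -0.05 and 0.71. Of all tested genes, 18.6% and 22.0% were, so the large subunit's share toward pool B was near that of all genes. Scaling by total counts alone moved the median of all genes by -0.14 and upper-quartile factors by 0.10. The median of the large subunit followed it, from -0.14 to 0.10, so its sign depends on the scaling. Relative to the median of all genes, the small subunit stood at 0.34 to 0.35 and the large subunit at -0.02 under each of the 4 scalings. With a library left out, the small subunit stood at 0.26 to 0.42 and the large subunit at -0.04 to 0.12 (highest without pool A replicate 2). The difference between the subunits is a description, and no test of it was made.

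In the large subunit, the members with many counts that were most clearly higher with pool B were Rpl27a, Rpl36 and Rpl21. The plot of CPM in each library shows that their ranges lie far apart. Rpl27a had 57.5, 66.0 and 52.7 CPM in the pool A libraries and 338, 384 and 486 CPM in the pool B libraries. All of its pool B values lay far above its pool A values, and the log2 fold change was -2.63 ± 0.17 (SE, n = 3 per pool, adjusted p = 4.75e-13). Rpl36, a small basic protein, had 288, 258 and 256 CPM with pool A and 1008, 988 and 1109 CPM with pool B. Its libraries fell into separate groups of narrow range, with a log2 fold change of -1.80 ± 0.13 (adjusted p = 1.22e-11). Fold changes here use edgeR's TMM library factors and so differ from ratios of CPM. Scaling by total counts alone, as CPM do, moved the median of all genes by -0.14.

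Rpl21 has 4 rows in the table. The row with most counts, ENSRNOG00000000957, had 426, 444 and 481 CPM with pool A and 914, 955 and 1136 CPM with pool B, with a log2 fold change of -1.01 ± 0.13 (adjusted p = 4.36e-07). Again no pool B library came near the pool A range. The other rows of this name held much less: means of 27.0 and 34.7 CPM for the pools in 1 row and of 4.19 and 9.42 CPM in another, neither past the threshold, and at most 1 count in any library in the last. Reads from near-identical copies can be split or dropped by counting, so the values of such names are uncertain.

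Rpl7a, an RNA-binding protein of the large subunit, has 2 rows and unstable values. In the row ENSRNOG00000047737, counts were 14, 4 and 8 with pool A and 44, 8 and 111 with pool B. The pool B libraries themselves differed widely, and the log2 fold change of -2.79 ± 0.60 (adjusted p = 4.27e-04) became -1.73 (adjusted p = 0.064) without pool B replicate 3. In the other row, ENSRNOG00000049097, counts of 156, 16 and 26 with pool A and 37, 87 and 28 with pool B overlapped, and the log2 fold change was -0.07 ± 0.53.

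Smaller differences toward pool B were seen in 5 further large subunit parents. Rpl41, whose product is a very short basic peptide, had 100.4, 108 and 105 CPM with pool A and 145, 259 and 213 CPM with pool B (log2 fold change -0.82 ± 0.17, adjusted p = 3.16e-04). Rpl29 had 340.5, 319.9 and 359 CPM with pool A and 539.9, 720.0 and 648 CPM with pool B (log2 fold change -0.76 ± 0.13, adjusted p = 3.41e-05). In both genes every pool B library exceeded every pool A library. Rpl4, which lines the exit tunnel for the growing peptide, was at -0.76 ± 0.16, Rpl24 at -0.67 ± 0.16 and Rpl14 at -0.32 ± 0.13, the last close to the threshold (adjusted p = 0.0472). The call of Rpl14 was lost whichever of the 6 libraries was left out (adjusted p = 0.0560 to 0.146), with upper-quartile factors (0.181) and with the replicate number as a block (0.0603).

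Toward pool A, Rpl3 and Rpl17 stood out in the large subunit. Rpl3, which reaches into the peptidyl transferase centre, had 322, 289 and 346 CPM with pool A and 144, 142 and 119.9 CPM with pool B, which gave a log2 fold change of 1.38 ± 0.14 (adjusted p = 3.48e-09). Rpl17, which lines the exit tunnel, had 160.1, 132 and 154 CPM with pool A and 55.2, 76.7 and 60.5 CPM with pool B, which gave a log2 fold change of 1.37 ± 0.17 (adjusted p = 1.25e-07). For both, every pool A library was above every pool B library. Rpl13 had 279, 255 and 264 CPM against 180.3, 153 and 139 CPM (log2 fold change 0.90 ± 0.14, adjusted p = 7.59e-06), and Rpl10a, the protein of the L1 stalk, was at 0.83 ± 0.18. Rpl35, which sits at the tunnel opening and had the most counts of any large subunit parent with pool A, had 791, 713 and 837 CPM with pool A and 465, 490.0 and 529.7 CPM with pool B (log2 fold change 0.80 ± 0.13, adjusted p = 8.91e-06). Its ranges did not overlap. Counts were not divided by transcript length, so no order of levels between genes is read from them.

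The acidic stalk proteins and their base gave mixed values. Rplp1 and Rplp2, which form the flexible stalk that recruits translation factors, were higher with pool A, at 0.79 ± 0.22 and 0.87 ± 0.26. Rplp2 rested on pool A replicate 1: its CPM were 67.6, 33.6 and 38.9 with pool A and 33.7, 26.3 and 24.97 with pool B, the ranges just overlapped, and without that library its log2 fold change was 0.49 (adjusted p = 0.192). Rplp0, which anchors the stalk, had 424, 365 and 507 CPM with pool A and 484, 543 and 530.4 CPM with pool B. Its ranges overlapped, and its log2 fold change of -0.13 ± 0.13 did not pass the threshold.

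The other large subunit parents called toward pool A were Rpl37a, Rpl6, Rpl26, Rpl28, Rpl31, Rpl32 and Rpl34, with log2 fold changes of 0.48 to 0.70. The call of Rpl34 (adjusted p = 0.0445) was lost when any library except pool A replicate 3 was left out (up to 0.136), by limma-voom (0.0505) and with the replicate number as a block (0.0585). With total counts alone, Rpl34 (0.190) and Rpl32 (0.0757) lost it. Among members that did not pass, Rpl5 and Rpl11, which with 5S ribosomal RNA bind Mdm2 when ribosome assembly fails, were at 0.14 ± 0.15 and -0.24 ± 0.17. Rpl10, among the last proteins to join the large subunit, was at -0.03 ± 0.22.

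**Figure D2:**
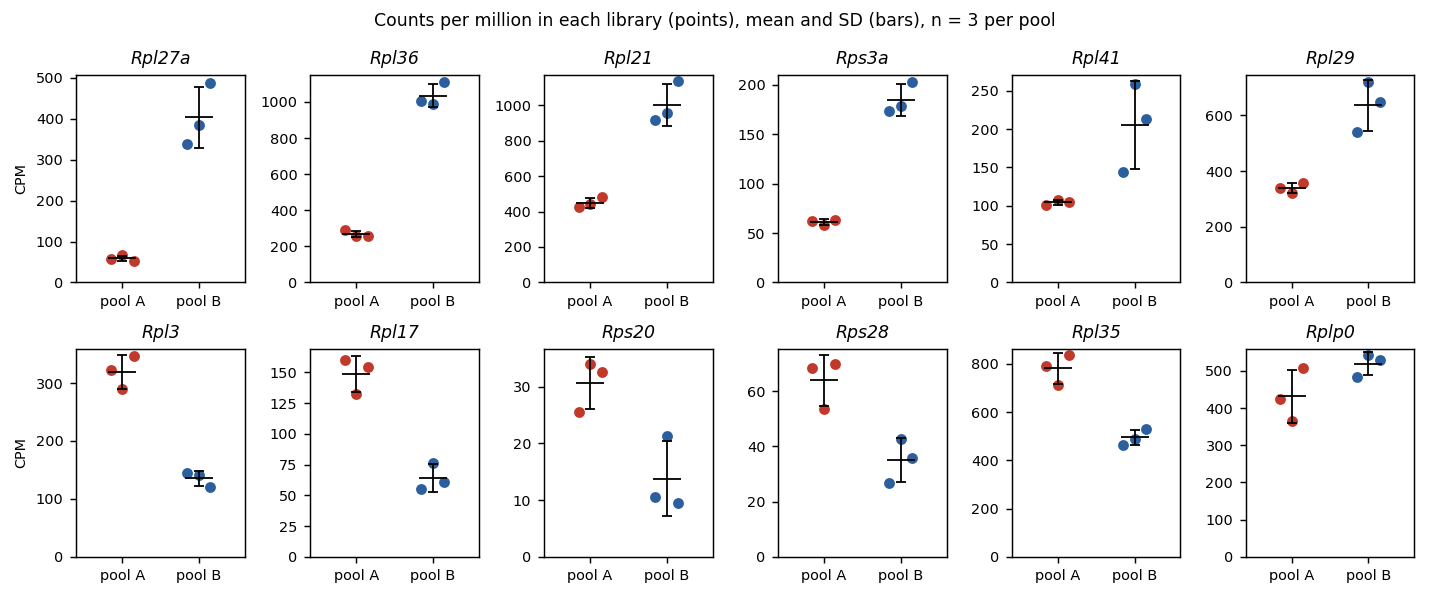
CPM in each library (points, y axis from 0) with the mean and SD per pool (bars, n = 3) for 12 ribosomal protein genes, pool A in red and pool B in blue; Rpl21 is its row with most counts. The top row holds genes higher with pool B, such as Rpl36 (means 267 and 1035 CPM), and the bottom row genes higher with pool A, such as Rpl3 (means 319 and 135 CPM), ending with Rplp0, whose pools overlap.

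In the small subunit, Rps3a was clearly higher with pool B. Rps3a, on the platform side of the subunit, had 62.1, 58.1 and 63.7 CPM with pool A and 173, 178 and 203 CPM with pool B, which gave a log2 fold change of -1.45 ± 0.16 (adjusted p = 1.40e-08). Its lowest pool B library held clearly more than its highest pool A library. Rps10, a protein of the subunit's head, had 57.2, 50.2 and 67.4 CPM against 87.3, 85.4 and 98.0 CPM. Its ranges were apart, but its log2 fold change of -0.49 ± 0.18 (adjusted p = 0.0276) lost the call without pool A replicate 1 (adjusted p = 0.0655), pool A replicate 2 (0.128) or pool B replicate 3 (0.123), and with upper-quartile factors (0.0816).

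Members higher with pool A were more numerous here, Rps20 and Rps28 among them. Rps20, in the head of the subunit, had 25.5, 34.0 and 32.6 CPM with pool A and 10.6, 21.4 and 9.46 CPM with pool B (log2 fold change 1.34 ± 0.32, adjusted p = 0.00141). Rps28, which lies at the messenger RNA exit, had 68.4, 53.4 and 69.96 CPM against 26.6, 42.7 and 35.9 CPM (log2 fold change 1.02 ± 0.22, adjusted p = 3.66e-04). Neither gene overlapped between pools. Rps27a, made as a fusion with ubiquitin, has 2 rows: the row with more counts was at 0.80 ± 0.24 (adjusted p = 0.00894), the other at 0.28 ± 0.31 (adjusted p = 0.507). Rps25, which several viral internal entry sites require, was at 0.79 ± 0.25 (adjusted p = 0.0133), and its call was lost without pool A replicate 1 (log2 fold change 0.64, adjusted p = 0.0925). Rps7, Rps9, Rps15, Rps16 and Rps23 were also called toward pool A, at 0.50 to 0.78. The calls of Rps9 and Rps16 were each lost in 3 of the 6 refits that leave out a library, Rps9 most without pool A replicate 3 (log2 fold change 0.40, adjusted p = 0.179) and Rps16 most without pool B replicate 1 (0.34, adjusted p = 0.160), and with total counts alone (adjusted p = 0.0862 and 0.139).

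Rpsa, Rps18 and Rps24 were among the small subunit parents with most counts. Rpsa, also known as the laminin receptor, had 376, 318 and 412 CPM with pool A and 331, 332 and 359 CPM with pool B, and its log2 fold change of 0.25 ± 0.13 did not pass (adjusted p = 0.120), except with upper-quartile factors (0.0256). Rps18, at the top of the head, had 355, 287 and 351 CPM against 361, 394 and 461 CPM. Its CPM ranges were just apart, yet the log2 fold change of -0.15 ± 0.13 on TMM-scaled libraries did not pass (adjusted p = 0.408). Rps24 had 265, 298 and 275 CPM against 199, 167 and 205 CPM, a log2 fold change of 0.70 ± 0.14 (adjusted p = 2.09e-04). Rps3, Rps14 and Rps19 were at -0.22 ± 0.16, 0.35 ± 0.15 and 0.37 ± 0.25 and did not pass.

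The median coefficient of variation of the tested parents was 13.0% with pool A and 13.5% with pool B, where that of all tested genes was 20.5% and 20.8%. The 90th percentile was 36.5% and 29.6% for the parents and 50.2% and 54.8% for all tested genes. Genes were not matched on counts, and no test was made of this difference.

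As a share of all counts, ribosomal protein genes took 0.979%, 0.885% and 1.01% in the pool A libraries and 1.06%, 1.12% and 1.17% in the pool B libraries. Every pool B library was higher, with means of 0.959% ± 0.067 and 1.12% ± 0.058 (SD, n = 3), although more members were called higher with pool A. When these 20 rows at Rn5-8s were taken out of the totals, the means were 1.18% ± 0.034 and 1.22% ± 0.044, and the ranges overlapped. Large subunit parents took 0.643% ± 0.044 with pool A and 0.800% ± 0.038 with pool B, small subunit parents 0.299% ± 0.021 and 0.296% ± 0.021, and paralogs 0.0175% ± 0.0016 and 0.0224% ± 0.0033. Without the Rn5-8s rows, small subunit parents took 0.382%, 0.357% and 0.362% with pool A and 0.314%, 0.308% and 0.346% with pool B, so every pool A library was higher. On the same totals, large subunit parents took 0.789% ± 0.020 with pool A and 0.871% ± 0.026 with pool B. The 95% Wilson interval of the share of all members was 0.874% to 0.897% in the lowest library and 1.16% to 1.19% in the highest. PCR copies are not independent molecules, so these intervals cover counting error only.

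The ratio of large to small subunit counts was 2.12, 2.16 and 2.17 in the pool A libraries and 2.72, 2.79 and 2.61 in the pool B libraries. It was higher in each pool B library, with means of 2.15 ± 0.027 and 2.71 ± 0.094 (SD, n = 3). Rpl36 and Rpl21 together held 7.55% to 8.29% of the members' counts with pool A and 17.7% to 19.6% with pool B. Leaving out these genes, which were picked after their values were seen, gave ratios of 1.88, 1.89 and 1.92 with pool A and 2.01, 2.11 and 1.89 with pool B. The ranges then overlapped. Both genes had more counts with pool B, so leaving them out had to bring the ratios closer.

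**Figure D3:**
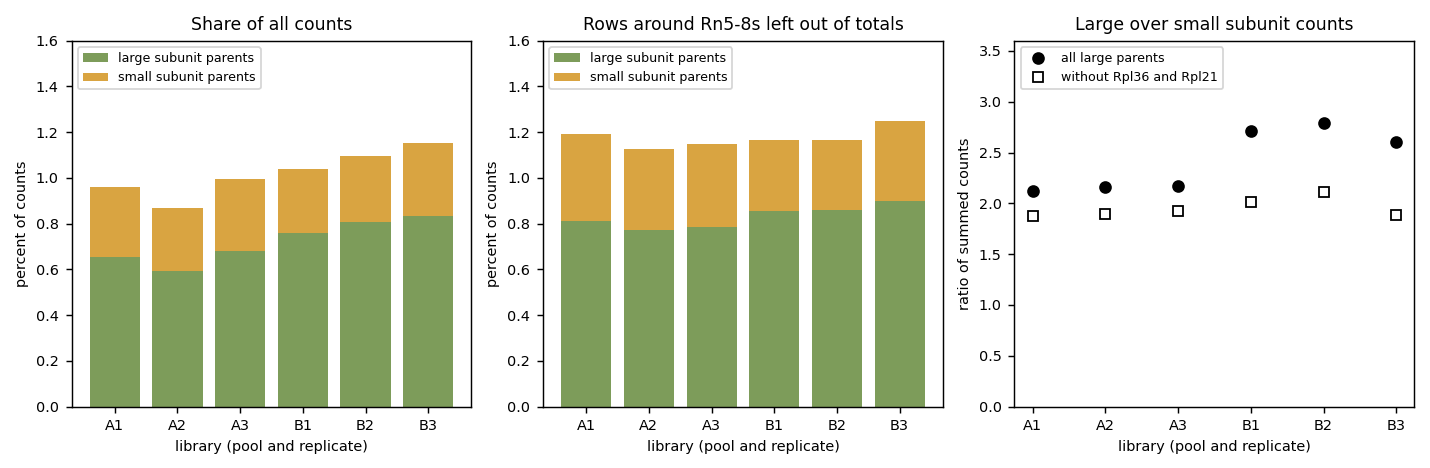
Percent of counts in large (green) and small (orange) subunit parents in each library, of all counts (left) and of counts outside the Rn5-8s rows (middle), and the ratio of large to small subunit counts (right) with all parents (circles) and without Rpl36 and Rpl21 (squares). The circles lie at 2.12 to 2.17 for pool A and 2.61 to 2.79 for pool B, while the squares of the pools overlap.

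Several parents had almost no counts, and the place of their rows in the table was examined. The table runs in genomic order, so a row's neighbours can be set against the neighbours that RefSeq lists for the same symbol. A row was counted as in place when at least 5 of the 10 flanking matched rows lay within 100 genes of the symbol in RefSeq. Of 80 parent rows, 67 were in place and 13 lay beside other genes. All 38 parent rows called higher with either pool were among the 65 tested rows in place, 26 (40.0%) toward pool A and 12 (18.5%) toward pool B, against 18.6% and 22.0% of all tested genes. Of the 13 rows elsewhere, 6 were tested and 0 were called by edgeR or DESeq2, with 1 at an unadjusted p under 0.05 by edgeR and 1 called by limma-voom, both higher with pool B. These 6 are too few to set against the rows in place, and some had low counts (mean 11.7 for Rpl36a). The 13 rows elsewhere include 3 of the 4 Rpl21 rows, the second rows of Rpl32 and Rps27a, and the only rows named Rpl36a, Rpl38, Rpl9, Rpl39, Rpl35a, Rpl37, Rps29 and Rpl30.

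The 9 parent rows below the filter on low counts were Rpl9, Rpl39, Rpl35a, Rpl37, Rps29, Rpl30, an Rpl21 row, Rps6 and Rpl8. All but Rps6 and Rpl8 lay away from their RefSeq neighbours, and whether these rows are the functional genes was not tested. Rps6, the small subunit protein that S6 kinases phosphorylate, was in place, with counts of 7, 2 and 4 with pool A and 11, 5 and 5 with pool B. Rpl8, which lies at the core of the large subunit, had counts of 0, 72 and 3 with pool A and 0, 4 and 0 with pool B. A single library held nearly all of its counts, so no level can be given for either pool.

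**Figure D4:**
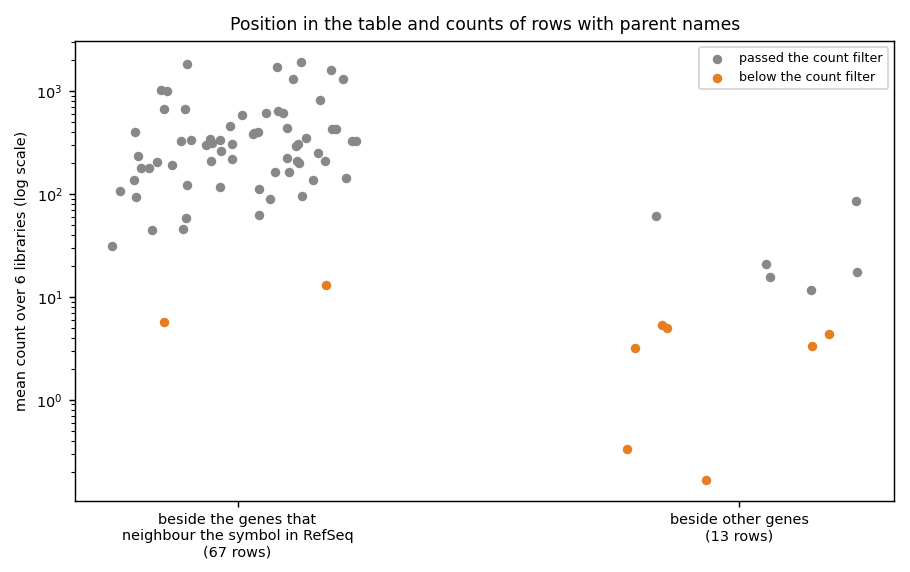
Mean count over the 6 libraries (log axis) for the 80 rows with parent names, as 67 rows that lie beside the genes neighbouring the symbol in RefSeq and 13 that lie beside other genes; horizontal scatter within a group has no meaning. Grey rows passed the filter on low counts and orange rows did not, 2 of the rows in place and 7 of the rows elsewhere.

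Paralogs had few counts, and Rpl36al was the only one called. Of 16, 8 passed the filter, with 0 called higher with pool A by edgeR (0 at an unadjusted p under 0.05, 0 by DESeq2 and 1 by limma-voom) and 1 (12.5%) higher with pool B. Their median log2 fold change was 0.35, and 0.20 without pool B replicate 3. It was -0.064 when at least 10 counts were required in every library, which left fewer paralogs tested. Of all tested genes, 18.6% and 22.0% were called toward pools A and B, and 8 rows are too few to set against these shares. Rpl36al, a close copy of Rpl36a, had 16.01, 22.9 and 19.8 CPM with pool A and 86.2, 89.2 and 82.9 CPM with pool B. Its pools were far apart, at a log2 fold change of -2.0 ± 0.22 (adjusted p = 1.74e-08). The Rpl36a row, which lay away from its RefSeq neighbours, had 3.53, 1.58 and 0.314 CPM against 6.14, 9.86 and 6.05 CPM, with a log2 fold change of -1.78 ± 0.73 (adjusted p = 0.0512). That row was called with total counts alone (adjusted p = 0.0323), by limma-voom (0.0496) and without pool A replicate 1 (0.0262). The products of these genes are nearly the same, so the split of reads between their rows is uncertain.

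The remaining paralogs that were tested did not pass the threshold. Rps27l, a target of p53, had a log2 fold change of 0.26 ± 0.64 and Rpl7l1, a nucleolar relative of Rpl7, of -0.27 ± 0.28. Rps18l1 was at 0.45 ± 0.23, and was called without pool B replicate 2 (log2 fold change 0.79, adjusted p = 0.00763) and by limma-voom (adjusted p = 0.0404). Rps4x-ps9 was at 1.0 ± 0.63, Rpl39l, best known from testis, at 0.91 ± 0.50, and Rps10l1 at 0.78 ± 0.46. Rps19l2 was at 0.10 ± 0.29. Of their parents, Rps10 was higher with pool B, as given above, while Rps4x (0.22 ± 0.26), Rps27 (-0.35 ± 0.34), Rpl7 (-0.24 ± 0.15), Rps18 and Rps19 did not pass. Below the filter were Rps15al4, Rpl22l1, Rplp0l1, Rps4y2, Rpl35al1, Rpl30l1, the muscle gene Rpl3l and the testis gene Rpl10l, which had no count in any library.

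Each paralog was also set against its parent within the library, as a log2 ratio of counts with 1 count added. In 7 pairs both genes were tested, and with 3 libraries against 3 the exact permutation test, two-sided, cannot fall under 0.1. Rps10l1 over Rps10 was -1.42, -2.54 and -2.59 with pool A and -2.88, -4.29 and -3.22 with pool B. The pool A values were all higher, by 1.28 in the mean (exact p = 0.1). Rps4x-ps9 over Rps4x was higher by 0.79 (exact p = 0.1), also without overlap. Adjusted over the 7 pairs, both exact p-values were 0.35. For Rps27l the difference was 0.76 (exact p = 0.4), for Rps18l1 0.64 (0.3), for Rps19l2 -0.34 (0.6) and for Rpl7l1 -0.02 (1.0), all with overlap. Rpl36al over Rpl36a differed by 0.04 (exact p = 1.0), and with 2 added counts by -0.18. The fold changes of these genes were thus of like size, but the Rpl36a counts are too few to fix their ratio.

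**Figure D5:**
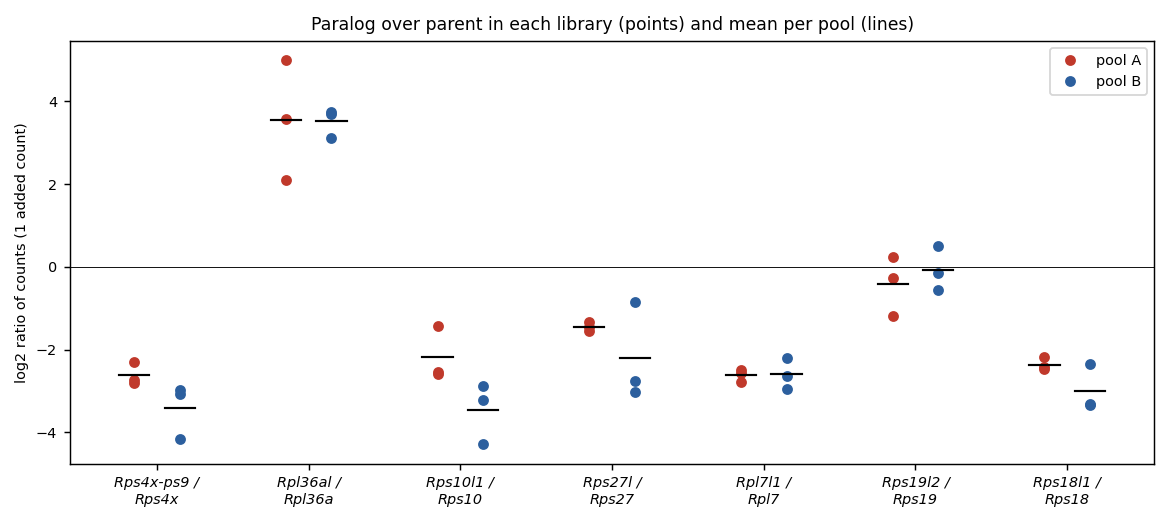
Log2 ratio of a paralog's counts to its parent's (y axis, 1 count added to each) in each library, pool A in red and pool B in blue, with lines at the pool means, for 7 pairs. The pools do not overlap for Rps4x-ps9 and Rps10l1, and of these pairs Rpl36al alone has clearly more counts than its parent's row.

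The annotated starts were then set beside the calls. A start was counted as TOP when the first transcribed base was C and at least the next 4 bases were C or T, read on the gene's strand alone. Of all 33469 RefSeq promoter entries, 881 (2.63%) met this, and of 50 parents in place with a single row and a single entry, 18 (36.0%) did. By call, they were 10 of 20 parents higher with pool A (50%), 2 of 9 higher with pool B (22.2%) and 6 of 21 not called (28.6%). Of these 21, 1 was below the filter on low counts and not tested. The median log2 fold change was 0.53 over the 18 with such a start and 0.11 over the 31 tested parents without it. In the sequences printed above, Rpl17 and Rps3a met the rule, while the tract of Rps23, Rps24, Rpl27a and Rps10 crossed an annotated start that was not a C. A start annotated a few bases off would miss the rule, and the counts by call are small.

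Parents whose RefSeq span holds a snoRNA gene were described in the same way. There were 27 such rows in place, of which 8 (29.6%) were higher with pool A, 6 (22.2%) higher with pool B and 13 not called, with a median log2 fold change of -0.01. Of 40 rows in place without one, 38 were tested, 18 (47.4%) were higher with pool A while 6 (15.8%) were higher with pool B, with a median of 0.36. The shares of all tested genes were 18.6% and 22.0%, the latter close to that of the hosts. Rpl27a, Rps3a, Rpl21 and the called Rpl7a row are among the hosts higher with pool B by over 2-fold, and Rpl36 is the only parent in place without a snoRNA to reach that. Rpl3, Rpl17 and Rps20 are hosts with over 2-fold more with pool A. Whether reads of these genes come from exons or introns is not shown by counts per gene.

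Other genes of the ribosome, of the TOP class and of ribosome assembly also differed in both directions. Of all tested genes, 18.6% were called toward pool A and 22.0% toward pool B. Of the ribosomal proteins with other names, Rack1, a scaffold on the small subunit's head, was higher with pool A (179 ± 14 and 94.95 ± 9.5 CPM, log2 fold change 1.07 ± 0.16, adjusted p = 2.78e-06). A second Rack1 row, below the filter, had no count with pool A and 1, 7 and 14 counts with pool B. Fau, a ubiquitin-like fusion of Rps30, was at -0.54 ± 0.17 (adjusted p = 0.0130), a call lost without pool A replicate 3 (0.110) or pool B replicate 1 (0.0975). Among 15 other TOP genes tested, 5 (33.3%) were higher with pool A while 6 (40.0%) were higher with pool B, with a median of -0.31. Npm1, a nucleolar chaperone that binds ribosomal proteins, had 4607, 4218 and 5083 CPM with pool A and 308, 243 and 280.0 CPM with pool B, which gave a log2 fold change of 4.20 ± 0.16 (adjusted p = 1.77e-17). Such a distance between the pools was not seen in any ribosomal protein gene. Hnrnpa1 (1.75 ± 0.14) and Nap1l1 (1.32 ± 0.17) were also higher with pool A, and Eif3h (-2.04 ± 0.23) and Eef1d (-1.40 ± 0.15) with pool B.

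Among 12 regulators of TOP translation tested, 5 (41.7%) were higher with pool A by edgeR, where 18.6% of all tested genes were, and 0 with pool B, against 22.0% (1 at an unadjusted p under 0.05, 0 by DESeq2 or limma-voom), with a median of 0.39. They were the S6 kinases Rps6kb2 (1.17 ± 0.23) and Rps6kb1 (0.56 ± 0.18), the RNA-binding proteins Tial1 (1.17 ± 0.24) and Tia1 (0.71 ± 0.23), and Eif4ebp1 (0.44 ± 0.15). Mtor (0.06 ± 0.17), Larp1 (0.06 ± 0.15) and Rptor (-0.39 ± 0.16) were among the 7 that did not pass. The calls of Tia1, Rps6kb1 and Eif4ebp1 were each lost without some library, with adjusted p of up to 0.0616, 0.0680 and 0.138 by edgeR, and when libraries were scaled by total counts alone, at 0.0627, 0.0873 and 0.153. Of 15 tested assembly factors of the small subunit, 3 (20.0%) were higher with pool A, near the share of all tested genes, while 5 (33.3%) were higher with pool B. The list includes Aamp (-2.10 ± 0.14), whose yeast relative Sqt1 is the chaperone of the large subunit protein Rpl10, and without it 4 of 14 (28.6%) were higher with pool B. Riok2, a kinase of late pre-40S particles, had 10.04, 11.1 and 13.2 CPM with pool A and 122, 138 and 134 CPM with pool B (log2 fold change -3.38 ± 0.21, adjusted p = 2.46e-13). Noc4l (-1.89 ± 0.25) and Ltv1 (-1.73 ± 0.17) were also higher with pool B, and Nop14 (1.82 ± 0.18) with pool A. Of 23 tested assembly factors of the large subunit, 9 (39.1%) were higher with pool A while 5 (21.7%) were higher with pool B, the latter near the share of all tested genes. Grwd1, the chaperone of Rpl3, had 109, 112 and 92.5 CPM with pool A and 16.4, 15.9 and 13.6 CPM with pool B (log2 fold change 2.92 ± 0.21, adjusted p = 1.02e-11). Senp3 (2.53 ± 0.24), Rsl24d1 (2.18 ± 0.27), Las1l (2.06 ± 0.16) and the export adaptor Nmd3 (1.68 ± 0.27) were higher with pool A as well.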

How the data were processed

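RNA pulled down with oligo pool A or B was sequenced from 3 libraries each, as strand-specific paired reads of 150 bp per the labels' protocols. The authors deposited raw counts per gene, with Ensembl identifiers and names, plus a mean per pool that equals the mean of the 3 counts and was not used. STAR and featureCounts are named in the submitters' processing notes. Their versions, the genome build, the annotation, the strand setting and the handling of reads with several places are not given in the sources used here.

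Counts were fitted over all genes with edgeR 4.0.16 in R 4.3.3 (TMM factors, filterByExpr by pool, quasi-likelihood test, pool as the only term), with two-sided p-values adjusted by Benjamini-Hochberg at 0.05. CPM use total counts. SE came from the fold change and the F statistic. DESeq2 1.42.0, limma 3.58.1 (voom), other scalings, filters and left-out libraries were alternatives. Libraries with the same number did not deviate together (correlations of 0.04, -0.02 and 0.02), so numbers were not taken as pairs.

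Parents, paralogs and the lists (ribosomal proteins with other names, other TOP genes, TOP regulators, assembly factors, mitochondrial ribosomal proteins, cell type markers) were chosen with earlier results of these data known. Genes named were, per subunit, the 5 largest called changes in each direction with a mean of at least 10 counts, the 3 parents with the highest CPM in each pool, parents below the filter, tested paralogs with their parents, and up to 5 called genes per list. Other members, list genes and markers were named after their values were seen. Of 90 names, 87 matched RefSeq (GRCr8) by symbol, which was used for neighbours and snoRNA genes, and 66 had a single promoter entry. Protein sequences and transcript lengths were not used here, and some genes that the rule names are not reported here.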

Additional observations from a re-analysis of the deposited data

How the results depend on the processing

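The counts of ribosomal protein genes called stayed within 1.5 times the reported 26 and 13 under each alternative run: 22 to 30 with pool A and 10 to 14 with pool B, of which 22 to 26 with pool A when a library was left out and 10 to 13 with pool B. An adjusted p under 0.01 gave 22 and 11. With the replicate number as a block the counts were 25 and 12, all among the reported ones, and the block gave medians of 0.17 for parents, 0.34 for the small subunit and 0.0017 for the large. Total counts alone gave medians of 0.066 for parents, -0.14 for the large and 0.21 for the small subunit, and upper-quartile factors 0.33, 0.10 and 0.46, both following the median of all genes. Leaving out a library gave medians of 0.11 (without pool A replicate 1) to 0.25 for parents, -0.0148 to 0.16 (without pool A replicate 2) for the large subunit, 0.28 to 0.42 for the small subunit and 0.20 to 0.39 for paralogs. Requiring at least 10 counts in every library turned the paralog median to -0.064, since fewer paralogs were tested. Leaving out rows away from their RefSeq neighbours, chosen after seeing the data, gave a large subunit median of 0.067; none of those rows was called, so the counts of calls could not fall. Without the rows around Rn5-8s the members' shares were 1.18% and 1.22%, and with a library left out 0.932% to 0.996% with pool A and 1.09% to 1.15% with pool B. The Rpl36al over Rpl36a difference was -0.18 with 2 added counts.

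Of 969 refits of 61 genes named by the rule, 940 kept direction and side of the threshold, 18 in 8 genes lost the call, 6 in 3 genes gained it and 5 in 3 genes turned sign, none of them a call. With a library left out, Rps27l lay between -0.0357 and 1.006, Rps4x between -0.0141 and 0.50 and Rps19l2 between -0.20 and 0.335, the last at -0.0265 with total counts. The cause of these turns was not tested. A planned list of unnamed loci described as ribosomal proteins was not run, because the reference table gives no descriptions.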

Other observations

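Genes for the mitochondrial ribosome, named Mrpl or Mrps, give a second set of ribosomal protein genes from the same libraries. Of 76 rows, 67 were tested. With edgeR's test, 11 (16.4%) were higher with pool A while 12 (17.9%) were higher with pool B. Of all tested genes, 18.6% and 22.0% were, so both shares lay near these. The median log2 fold change was -0.01. Mrpl44 had 157, 191 and 173 CPM with pool A and 26.2, 20.8 and 32.2 CPM with pool B, which gave a log2 fold change of 2.84 ± 0.19. Mrps22 had 20.9, 13.4 and 25.4 CPM with pool A and 121, 119.9 and 119.6 CPM with pool B, which gave a log2 fold change of -2.44 ± 0.21. Neither gene overlapped between the pools. Mrpl43 (1.93 ± 0.28) was also higher with pool A, and Mrps14 (-2.17 ± 0.37) and Mrpl20 (-1.83 ± 0.46) with pool B. No test of the mitochondrial against the cytosolic genes was made.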
